A study of Rattus norvegicus with 9 samples.

Results

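The 10 genes described here make bile acids from cholesterol in the rat liver, join them to amino acids, or hold the pathway back. They were chosen by name, with earlier results of these data known, and all 10 were among the 15565 genes present in both deposited tables. The classic route of synthesis opens with Cyp7a1, the rate-limiting cholesterol 7-alpha-hydroxylase, and the alternative route with Cyp27a1, the mitochondrial sterol 27-hydroxylase, followed by Cyp7b1, the oxysterol 7-alpha-hydroxylase. Hsd3b7, Akr1d1 and Akr1c14 then modify the ring system, and Cyp8b1, the sterol 12-alpha-hydroxylase, sets whether cholic acid or another primary bile acid is formed. Slc27a5, the bile acyl-CoA synthetase, activates the bile acid, and Baat, an N-acyltransferase, joins it to taurine or glycine. Nr0b2 encodes SHP, a nuclear receptor without a DNA-binding domain that is induced by the bile acid receptor FXR and that holds back Cyp7a1 and Cyp8b1 through NR5A2 (LRH-1) and HNF4A.

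The livers came from male SD rats, and their RNA was sequenced in 9 libraries of 3 groups. The SCL-treated group (3 libraries) was given SCL, which stands for Smilax china L., a climbing plant, and carried the tissue label of a fatty liver. The high-fat diet group (3 libraries) was fed that diet for 8 weeks to bring on fatty liver disease, and the normal diet group (3 libraries) was the control. Ages, the dose and length of SCL treatment, and the diet of the SCL-treated rats are not given in the labels, and the design text writes SCS where the sample labels write SCL, which were taken as the same group. Whether each library is its own animal is stated only through the numbering, so the spread behind each p-value could be technical. Counting error alone would give a chi-square near its degrees of freedom between 2 libraries of a group, and the smallest found was 38.5 times that.

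The libraries held between 12413774 and 15521648 reads, and transcripts of the mitochondrial genome took between 3.85% and 49.0% of them. SCL-treated replicate 2 (49.0%) and high-fat diet replicate 3 (44.1%) stood apart from the other 7 libraries, which lay at or under 18.8%. The mean share was 22.3 ± 23.2% in SCL-treated, 22.6 ± 19.9% in high-fat diet and 6.54 ± 4.01% in normal diet livers (SD, n = 3). The share is thus partly mixed with the group, and a fit with it as covariate can also take up part of a group difference. The liver label was met by all 12 hepatocyte markers, whose summed level ran from 69589 to 204919 CPM (counts scaled to a common library size with TMM factors) in SCL-treated livers, from 66999 to 135490 CPM in high-fat diet livers and from 131970 to 170598 CPM in normal diet livers. In high-fat against normal diet livers 11 of these 12 markers were negative in log2 fold change (median -0.50). In tissue, fewer hepatocytes and less of an RNA in each hepatocyte cannot be told apart.

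Differences were tested with edgeR over all 12041 genes that passed a filter on low counts, and all 10 bile acid genes passed it. No bile acid gene passed an adjusted p of 0.05 in any comparison in this test. The words higher and lower below therefore describe the libraries measured. The submitters' processing notes name mm9, a mouse genome build, for these rat libraries, and how reads were assigned to genes is not given in the sources used here.

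Per gene length, the members spanned a wide range of levels. In FPKM (fragments scaled to gene length and to total reads, as deposited by the authors) Baat was the most abundant member in normal diet livers, at 614.8 ± 95.9 FPKM (SD, n = 3), followed by Cyp8b1 at 560.0 ± 185.8 FPKM, Akr1c14 at 374.2 ± 78.9 FPKM, Slc27a5 at 370.0 ± 161.9 FPKM and Akr1d1 at 256.9 ± 16.1 FPKM. Neighbours among these 5 overlapped over their 3 libraries. Cyp27a1 followed at 158.6 ± 6.84 FPKM and Hsd3b7 at 77.4 ± 22.3 FPKM, each without overlap with its neighbours. Nr0b2 at 13.9 ± 8.57 FPKM and Cyp7a1 at 9.12 ± 3.04 FPKM overlapped each other, and Cyp7b1 was lowest at 1.31 ± 0.465 FPKM. The rate-limiting enzyme of the classic route thus stood ninth of the 10 genes on the normal diet.

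**Figure D1:**
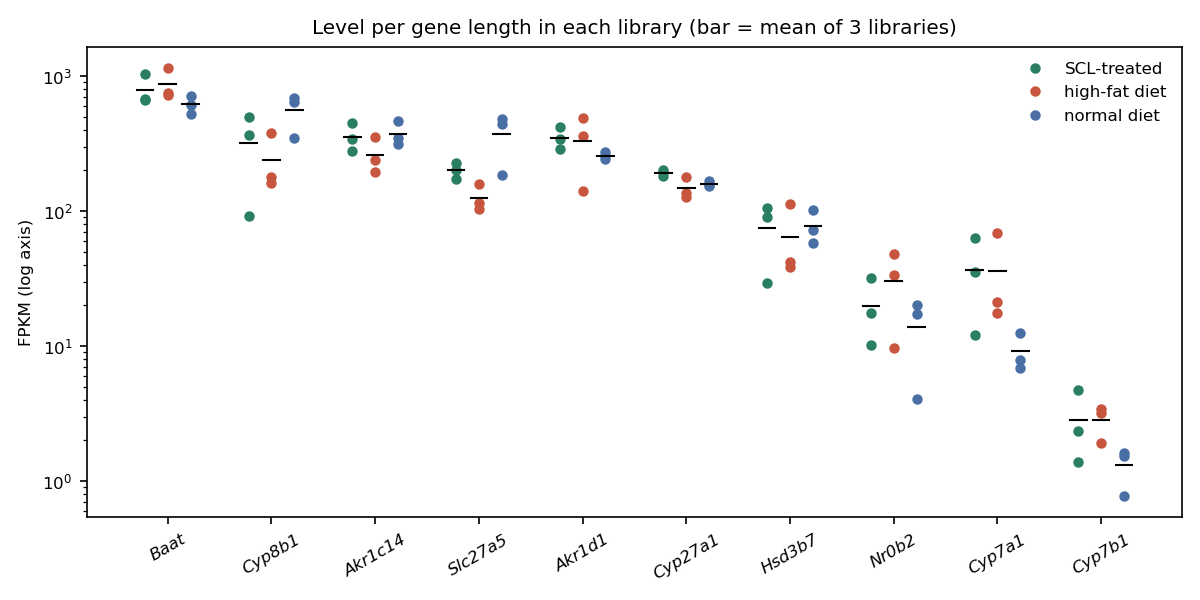
Deposited FPKM (log axis) of the 10 genes in SCL-treated, high-fat diet and normal diet livers, with 1 point per library and a bar at the mean of 3 libraries. Baat is at the top of the order in each group and Cyp7b1 at the bottom. Slc27a5 stands lower, and Cyp7a1 higher, in each high-fat diet library than in each normal diet library. Cyp8b1 has a lower mean in high-fat diet livers, but these 2 groups overlap.

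The order was different in the other 2 groups. In SCL-treated livers Akr1c14 (356.1 ± 88.5 FPKM, SD, n = 3) and Akr1d1 (349.7 ± 66.0 FPKM) came after Baat (788.6 ± 207.4 FPKM), and Cyp8b1 followed at 319.1 ± 208.4 FPKM. In high-fat diet livers Baat stood at 871.5 ± 231.3 FPKM, Akr1d1 at 330.2 ± 176.5 FPKM, Akr1c14 at 261.6 ± 82.1 FPKM and Cyp8b1 at 239.4 ± 121.1 FPKM, and the last 3 overlapped each other. Slc27a5 was sixth there, at 125.8 ± 29.8 FPKM, and Cyp7a1 was eighth, at 35.7 ± 28.5 FPKM. FPKM was computed per total reads, mitochondrial ones included, so FPKM and TMM-scaled CPM rank libraries differently where that share differs.

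High-fat diet livers were set against normal diet livers to see how the diet bears on bile acid genes. The 2 hydroxylases that lead to cholic acid had opposite signs: in CPM, Cyp7a1 was higher and Cyp8b1 lower in each high-fat diet library than in each normal diet library, while in FPKM the Cyp8b1 groups overlapped. Slc27a5, of the conjugation step, was also lower in each high-fat diet library, and Cyp7b1, of the alternative route, was higher, both in CPM and in FPKM. Cyp27a1, which opens the alternative route, overlapped the normal diet group.

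Cyp7a1 had 197.1, 78.99 and 68.98 CPM in high-fat diet replicates 1, 2 and 3, against 40.8, 24.4 and 24.5 CPM in normal diet replicates 1, 2 and 3. The groups did not overlap, and high-fat diet replicate 1 stood well above the other high-fat diet libraries. The title of that library carries the code M2, where the other high-fat diet titles carry M, and what this stands for is not known here. The log2 fold change was 1.94 (SE 0.62), which is 3.85-fold, with an unadjusted p of 0.010 and an adjusted p of 0.91 in edgeR. Without high-fat diet replicate 1 the log2 fold change was 1.30 (SE 0.58, edgeR adjusted p = 0.23). In the authors' deposited table, whose fold changes run as normal over high-fat diet, Cyp7a1 stood at -1.94 with an adjusted p of 0.023.

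Cyp8b1 had 605.9, 333.2 and 393.6 CPM in high-fat diet replicates 1 to 3, against 1153, 1195 and 685.6 CPM in normal diet replicates 1 to 3. The highest high-fat diet library lay just under the lowest normal diet library in CPM, but in FPKM high-fat diet replicate 1 (378.8) lay above normal diet replicate 3 (347.5). Its log2 fold change was -1.19 (SE 0.52, unadjusted p = 0.043, edgeR adjusted p = 0.91). Leaving out high-fat diet replicate 1 gave -1.49 and leaving out high-fat diet replicate 3 gave -1.11. With the log2 mitochondrial share as a covariate the value was -0.49 (SE 0.42, unadjusted p = 0.27 in edgeR). Without the 2 libraries over 40% mitochondrial it was -1.11 (SE 0.38, unadjusted p = 0.020 in edgeR).

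The promoter of Cyp8b1 is shown because NR5A2, through which SHP acts, is known to bind there in rodents. Its window of 250 bases before to 50 bases after the start site lies at chr8:130457543-130457842 on the minus strand of GRCr8 (RefSeq). The capitals mark CAAGGTC, a shortened form of the NR5A2 site that was chosen after the sequences were seen. Beside it stand the window of Slc27a5, at chr1:82699286-82699585 on the minus strand, which holds none of the motifs searched, and that of Cyp27a1, at chr9:83713282-83713581 on the plus strand, where the capitals mark the full NR5A2 letters CAAGGTCA read on the opposite strand and AGGTCA, a unit that nuclear receptors bind.
Cyp8b1: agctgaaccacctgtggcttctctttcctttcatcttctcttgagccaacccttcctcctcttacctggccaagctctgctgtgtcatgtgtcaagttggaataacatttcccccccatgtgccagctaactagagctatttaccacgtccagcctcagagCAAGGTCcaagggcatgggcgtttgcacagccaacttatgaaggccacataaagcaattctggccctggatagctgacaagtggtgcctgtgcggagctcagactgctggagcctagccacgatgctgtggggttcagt
Slc27a5: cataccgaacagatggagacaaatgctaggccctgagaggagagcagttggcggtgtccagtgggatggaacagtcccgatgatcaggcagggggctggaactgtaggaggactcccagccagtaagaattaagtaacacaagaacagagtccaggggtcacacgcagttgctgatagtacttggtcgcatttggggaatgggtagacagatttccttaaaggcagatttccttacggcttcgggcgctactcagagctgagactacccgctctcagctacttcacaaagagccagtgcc
Cyp27a1: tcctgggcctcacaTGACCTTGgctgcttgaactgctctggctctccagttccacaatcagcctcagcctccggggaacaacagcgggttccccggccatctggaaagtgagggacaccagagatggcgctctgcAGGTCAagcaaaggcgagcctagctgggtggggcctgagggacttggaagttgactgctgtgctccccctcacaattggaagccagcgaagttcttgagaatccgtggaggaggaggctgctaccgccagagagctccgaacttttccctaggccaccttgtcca
The start site of the Cyp27a1 window lies 1130 bases inside the gene's annotated span, while those of the other 6 windows match the gene's 5′ end. The match in Cyp8b1 starts at position -89 from the start site, and the 2 in Cyp27a1 start at -236 and -115. Searched on both strands of 33469 rat promoter windows of the same length, CAAGGTCA was found in 1.52%, CAAGGTC, which it contains, in 4.20% and AGGTCA, which overlaps it, in 16.2%. AGGTCA repeated with 1 base between was found in 0.0538% as a direct repeat and in 0.0269% as an inverted repeat, and in none of the windows of the 7 bile acid genes that the table holds. The windows of Nr0b2, Baat, Hsd3b7 and Akr1c14 held none of these letters, and those of Cyp7a1, Cyp7b1 and Akr1d1 were not used here. A match is a stretch of letters and says nothing of binding.

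Slc27a5 had 300.1, 251.9 and 296.7 CPM in high-fat diet replicates 1 to 3, against 1022, 900.1 and 427.9 CPM in normal diet replicates 1 to 3. The high-fat diet libraries lay close together, and normal diet replicate 3 had less than the other normal diet libraries. The log2 fold change was -1.47 (SE 0.35), which is 2.77-fold lower, with an unadjusted p of 0.0017 and an adjusted p of 0.61 in edgeR. It was rank 34 of 12041 genes by p. DESeq2 called it over all genes (log2 fold change -1.48, SE 0.35, adjusted p = 0.011), as did limma-voom with quality weights (-1.68, adjusted p = 0.038), and the authors' deposited table gives an adjusted p of 0.045. In edgeR without normal diet replicate 3 it stood at -1.77 (adjusted p = 0.30), and with the mitochondrial share as covariate at -1.28 (SE 0.37, adjusted p = 0.63).

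Baat, the other conjugation gene, had 1000.3, 1350 and 2162 CPM in high-fat diet replicates 1 to 3, against 814.0, 1066 and 1035 CPM in normal diet replicates 1 to 3. The groups overlapped in CPM, where high-fat diet replicate 1 lay between the normal diet libraries, and in FPKM they did not. The log2 fold change was 0.63 (SE 0.40, edgeR adjusted p = 0.91). The highest level belonged to the library with 44.1% mitochondrial reads, and in the SCL-treated group the highest Baat level (2109 CPM) belonged to the library with 49.0%. The other 7 libraries lay between 814.0 and 1350 CPM, and with the mitochondrial share as covariate the log2 fold change was 0.13 (SE 0.30). The part of the mitochondrial share in the Baat values was not tested further.

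Cyp27a1 had 331.8, 325.6 and 322.8 CPM in high-fat diet replicates 1 to 3, against 346.1, 306.5 and 354.4 CPM in normal diet replicates 1 to 3. The groups overlapped, with a log2 fold change of -0.039 (SE 0.25, edgeR adjusted p = 0.99). Cyp7b1 had 7.37, 10.2 and 6.08 CPM in high-fat diet livers, against 2.01, 4.03 and 4.34 CPM in normal diet livers. It was the member with the fewest reads, between 33 and 171 in a library, and its groups did not overlap (log2 fold change 1.19, SE 0.50, unadjusted p = 0.038, edgeR adjusted p = 0.91).

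The 3 enzymes that modify the ring had no unadjusted p under 0.05. Hsd3b7, the steroid dehydrogenase of the second step, had 164.7, 78.7 and 77.2 CPM in high-fat diet livers, against 167.1, 113.5 and 104.3 CPM in normal diet livers. Akr1d1, the 5-beta-reductase, had 1315, 1254 and 519.3 CPM in high-fat diet livers, against 826.9, 699.7 and 846.4 CPM in normal diet livers, and its low high-fat diet value belonged to replicate 3. Both overlapped between diets, with log2 fold changes of -0.26 (SE 0.45) and 0.38 (SE 0.38). Without the 2 libraries over 40% mitochondrial Akr1d1 stood at 0.70 (SE 0.23, unadjusted p = 0.017, edgeR adjusted p = 1.00). Akr1c14, a 3-alpha-hydroxysteroid dehydrogenase with close relatives in the rat genome, had 667.5, 585.8 and 503.7 CPM in high-fat diet livers, against 743.2, 945.1 and 726.1 CPM in normal diet livers. Its groups did not overlap in CPM and overlapped in FPKM (log2 fold change -0.46, SE 0.31, unadjusted p = 0.17, edgeR adjusted p = 0.91), and reads shared with its relatives could not be told apart here.

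Nr0b2, the repressor, had 43.3, 11.4 and 41.4 CPM in high-fat diet replicates 1 to 3, against 4.14, 16.9 and 22.3 CPM in normal diet replicates 1 to 3. The groups overlapped, with a log2 fold change of 1.15 (SE 0.65, unadjusted p = 0.11, edgeR adjusted p = 0.91). Within each diet the highest library had several times the level of the lowest, 3.802 times on the high-fat diet and 5.39 times on the normal diet.

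**Figure D2:**
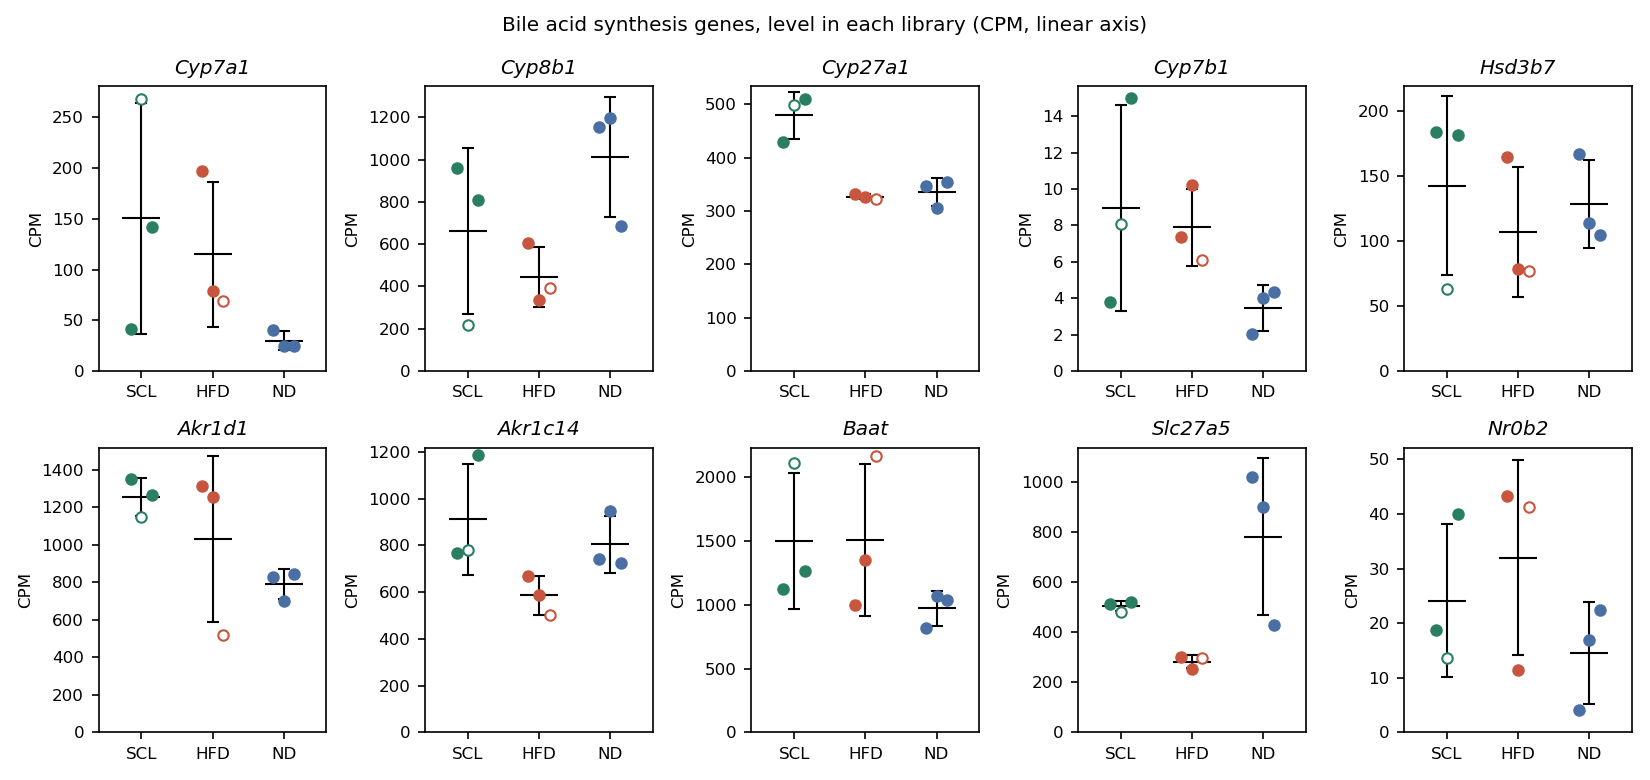
Level of each gene in CPM (linear axis) in SCL-treated (SCL), high-fat diet (HFD) and normal diet (ND) livers, with 1 point per library and the mean ± SD of 3 libraries. Open points are the 2 libraries with over 40% mitochondrial reads, which hold the 2 highest Baat and the 2 lowest Hsd3b7 values.

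The 10 genes were chosen with earlier results of these data known. Of them, 5 had a positive and 5 a negative log2 fold change between high-fat and normal diet. An unadjusted edgeR p under 0.05 was reached by 4 of them, Cyp7a1 and Cyp7b1 higher and Cyp8b1 and Slc27a5 lower, against 4.32% of all tested genes (2.77% in the higher and 1.55% in the lower direction). For 5 members the diets did not overlap in CPM, against 10.6% of all genes, 2 of them higher (5.33% of genes) and 3 lower (5.27% of genes). In FPKM 4 members did not overlap (Cyp7a1, Cyp7b1 and Baat higher, Slc27a5 lower), against 9.72% of genes. After adjustment edgeR called 0 of the 10 members and 0.0083% of all genes. DESeq2 called 1 member (Slc27a5) and 0.415% of genes, limma-voom called 1 member (Slc27a5) and 0.216% of genes, and the authors' deposited table held 2 members (Cyp7a1 and Slc27a5) and 0.333% of its genes under 0.05. DESeq2 with only the 6 libraries compared, chosen after seeing the data, called the same 2 members, with adjusted p of 0.025 for Cyp7a1 and 0.040 for Slc27a5, and 0.492% of genes. The members' median log2 fold change was 0.17, beside 0.034 over all tested genes.

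**Figure D3:**
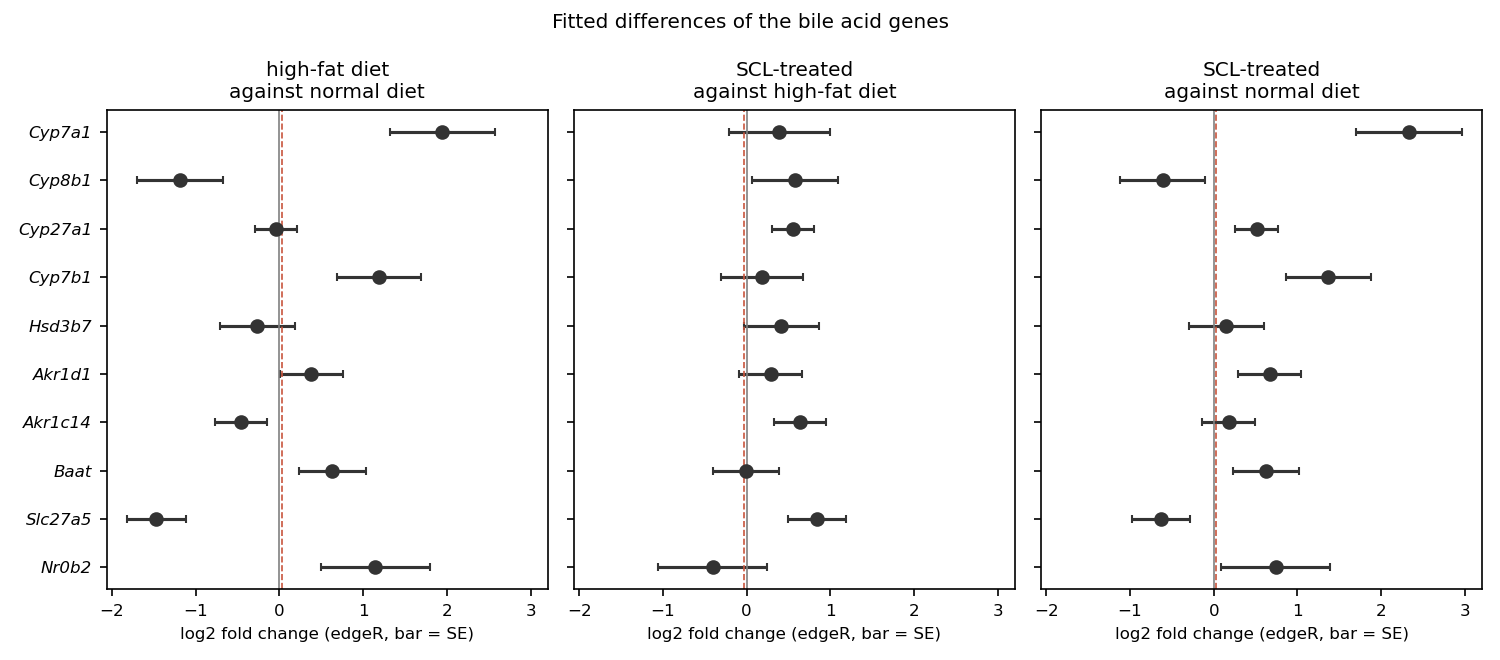
Log2 fold change of each gene from edgeR, with its SE as a bar, in the 3 comparisons. The dashed line is the median over all tested genes. In high-fat against normal diet livers Cyp7a1 (1.94) and Slc27a5 (-1.47) lie at the 2 ends, and in SCL-treated against high-fat diet livers the values run from -0.41 (Nr0b2) to 0.84 (Slc27a5).

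A ratio of 2 genes counted in the same library does not depend on how libraries are scaled, and a difference of such ratios between groups does not depend on gene length. The log2 ratio of Cyp8b1 to Cyp7a1 counts was 1.62, 2.08 and 2.51 in high-fat diet replicates 1 to 3, against 4.82, 5.61 and 4.80 in normal diet replicates 1 to 3. The groups lay far apart, with means of 2.07 ± 0.45 on the high-fat diet and 5.08 ± 0.46 on the normal diet (SD, n = 3 each), a difference of -3.01. The difference lay between -3.23 and -2.74 when each library was left out in turn or the 2 libraries over 40% mitochondrial were left out together. With 3 against 3 libraries the smallest p an exact two-sided permutation test can give is 0.1, so no p is given for ratios.

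The other ratios separated the diets less clearly. Slc27a5 to Baat, the 2 conjugation genes, stood at -1.74, -2.42 and -2.87 on the high-fat diet, against 0.33, -0.24 and -1.27 on the normal diet. The groups did not overlap, with a mean difference of -1.94. Cyp7a1 to Cyp27a1, the first enzymes of the 2 routes, stood at -0.75, -2.04 and -2.23 on the high-fat diet, against -3.08, -3.65 and -3.85 on the normal diet, and did not overlap either, with a mean difference of 1.85. Cyp7a1 to Cyp7b1 and Akr1d1 to Akr1c14 overlapped between the diets, with mean differences of 0.60 and 0.73.

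**Figure D4:**
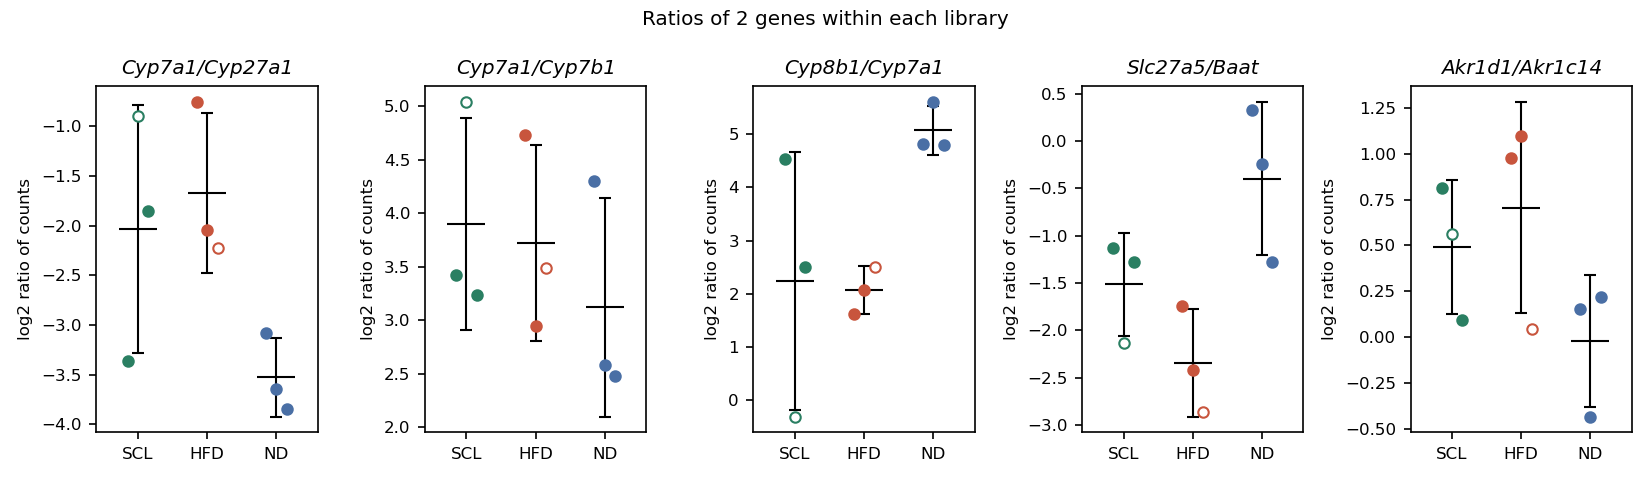
Log2 ratio of the counts of 2 genes within each library, in SCL-treated (SCL), high-fat diet (HFD) and normal diet (ND) livers. Points are libraries, bars the mean ± SD of 3 libraries, and open points the 2 libraries with over 40% mitochondrial reads. The high-fat diet libraries lie between 1.62 and 2.51 for Cyp8b1/Cyp7a1, below all normal diet libraries, and the SCL-treated libraries spread from -0.31 to 4.53.

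The second comparison asked what SCL treatment did beside the high-fat diet. In CPM, Slc27a5, Cyp27a1 and Akr1c14 were higher in each SCL-treated library than in each high-fat diet library, with fitted fold changes of 1.79, 1.47 and 1.56. In FPKM this held for Slc27a5 and Cyp27a1, and the Akr1c14 groups overlapped. Cyp7a1 and Cyp8b1 spread widely among the SCL-treated libraries and overlapped the high-fat diet group. This comparison shares its high-fat diet libraries with the first, so their values enter both with opposite sign.

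Slc27a5 had 512.0, 481.2 and 522.9 CPM in SCL-treated replicates 1 to 3, against the 300.1, 251.9 and 296.7 CPM in high-fat diet livers. In CPM both groups were tight and lay apart, with a log2 fold change of 0.84 (SE 0.35, unadjusted p = 0.036, edgeR adjusted p = 1.00). In FPKM they spread more, and SCL-treated replicate 2 (172.4) lay only a little above high-fat diet replicate 1 (159.6). Cyp27a1 had 428.7, 498.5 and 510.8 CPM in SCL-treated livers, against at most 331.8 CPM in high-fat diet livers, with a log2 fold change of 0.55 (SE 0.25, unadjusted p = 0.054). Akr1c14 had 768.7, 779.6 and 1184 CPM in SCL-treated livers, against at most 667.5 CPM in high-fat diet livers, with a log2 fold change of 0.64 (SE 0.31, unadjusted p = 0.068). None of the 3 passed after adjustment (edgeR adjusted p = 1.00 for each). Their log2 fold changes were 0.90, 0.51 and 0.63 without the 2 libraries over 40% mitochondrial.

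Cyp7a1 had 41.5, 268.7 and 141.6 CPM in SCL-treated replicates 1 to 3, a range wider than that of the high-fat diet libraries. The highest value came from the library with 49.0% mitochondrial reads, and the lowest stood next to the highest normal diet library (40.8 CPM). The log2 fold change was 0.39 (SE 0.60, edgeR adjusted p = 1.00) with all libraries and -0.33 (SE 0.59, edgeR adjusted p = 0.89) without SCL-treated replicate 2. Cyp8b1 had 959.5, 217.1 and 809.1 CPM in SCL-treated replicates 1 to 3, and here replicate 2 was the lowest of all 9 libraries. The log2 fold change was 0.58 (SE 0.51) with all libraries and 0.997 (SE 0.37, edgeR adjusted p = 0.70) without SCL-treated replicate 2. The log2 ratio of Cyp8b1 to Cyp7a1 was 4.53, -0.31 and 2.51 in SCL-treated replicates 1 to 3, so that replicate 1 lay near the normal diet libraries, replicate 3 at the upper end of the high-fat diet range and replicate 2 below it.

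The remaining members overlapped between SCL-treated and high-fat diet livers. Cyp7b1 had 3.81, 8.05 and 15.005 CPM in SCL-treated replicates 1 to 3 (log2 fold change 0.18, SE 0.49). Hsd3b7 had 183.4, 62.9 and 181.2 CPM (0.41, SE 0.45), with the low value in the library of 49.0% mitochondrial reads. Akr1d1 had 1352, 1152 and 1264 CPM (0.29, SE 0.38), and Baat had 1120, 2109 and 1266 CPM (-0.0057, SE 0.40). Nr0b2 had 18.9, 13.6 and 40.01 CPM (-0.41, SE 0.65).

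In all, 8 of 10 members had a positive log2 fold change in SCL-treated against high-fat diet livers, with a median of 0.40 beside -0.031 over all tested genes. The 12 hepatocyte markers had a median of 0.24 in the same comparison, with 3 of them negative. With library totals as the only scaling the members' median was 0.15 and that of all genes was -0.19. An unadjusted edgeR p under 0.05 was reached by 1 member (Slc27a5), against 1.95% of genes (0.615% higher and 1.34% lower). For 3 members the groups did not overlap in CPM, against 4.78% of genes, and all 3 were higher (2.36% of genes) and none lower (2.43% of genes). In FPKM it was 2 members, against 5.44% of genes. After adjustment edgeR called 0 members and 0% of genes. At an unadjusted p under 0.05 it had 235 of 12041 genes, while DESeq2 called 1 gene after adjustment and limma-voom 0. The authors' deposited table held 0 members and 0% of its genes under an adjusted p of 0.05.

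Set against the normal diet, SCL-treated livers had more Cyp7a1 and Cyp7b1 at an unadjusted p under 0.05. In CPM Cyp7a1 was higher in each SCL-treated library than in each normal diet library, with a log2 fold change of 2.33 (SE 0.63, unadjusted p = 0.0038, edgeR adjusted p = 0.66), although SCL-treated replicate 1 (41.5 CPM) and normal diet replicate 1 (40.8 CPM) nearly touched. In FPKM these 2 libraries crossed, at 12.04 in SCL-treated replicate 1 and 12.59 in normal diet replicate 1. Without SCL-treated replicate 2 it stood at 1.61 (SE 0.58, edgeR adjusted p = 0.77). DESeq2 gave an adjusted p of 0.049 with 9 libraries and 0.0057 with only the 6 compared, and limma-voom 0.086. Cyp7b1 stood at 1.37 (SE 0.50, unadjusted p = 0.021, edgeR adjusted p = 0.66), with overlap at SCL-treated replicate 1, and at 0.76 (SE 0.48) without SCL-treated replicate 3.

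Akr1d1, Baat and Cyp27a1 did not overlap in CPM either and were higher in SCL-treated livers, with log2 fold changes of 0.67 (SE 0.38), 0.63 (SE 0.40) and 0.51 (SE 0.25). In FPKM the Baat groups overlapped. Cyp8b1 (-0.61, SE 0.51) and Slc27a5 (-0.63, SE 0.35) overlapped the normal diet group, and for Slc27a5 normal diet replicate 3 (427.9 CPM) lay under all SCL-treated libraries. In this comparison 2 members had an unadjusted edgeR p under 0.05, both higher, against 6.88% of genes (3.32% higher and 3.55% lower). Without overlap in CPM were 4 members, against 15.3% of genes, all higher (7.47% of genes) and none lower (7.81% of genes). In FPKM it was 2 members (Akr1d1 and Cyp27a1), against 17.2% of genes. After adjustment edgeR called 0 members and 0.0083% of genes, and DESeq2 called 1 member (Cyp7a1) and 0.332% of genes. With only the 6 libraries compared DESeq2 called the same gene and 1.13% of genes, and limma-voom called 0 members and 1.26% of genes. This comparison shares libraries with both others.

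Nr0b2 is known to hold back Cyp7a1 and Cyp8b1, so its level was set against theirs across the 9 libraries. For Cyp7a1 Pearson's r of log2 CPM was 0.31 (exact permutation p = 0.43, adjusted over 2 relations 0.71) and Spearman's rho 0.23 (exact permutation p = 0.55, adjusted 0.78, n = 9). For Cyp8b1 r was -0.14 (exact permutation p = 0.71, adjusted 0.71) and rho -0.12 (exact permutation p = 0.78, adjusted 0.78, n = 9). Without the 2 libraries farthest from the median Nr0b2 level, normal diet replicate 1 and high-fat diet replicate 1, r was 0.0013 for Cyp7a1 and 0.28 for Cyp8b1. After each group's mean was taken off, r was -0.096 for Cyp7a1 and 0.25 for Cyp8b1. No relation was detectable at this number of libraries, and groups of 3 are too small to look within.

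Across the same 9 libraries, and as a description only, the 3 genes outside the members whose log2 CPM followed Cyp7a1 most closely, of 6529 searched, were Tp53bp2 (r = 0.93), Srsf3 (r = 0.93) and Tsc22d1 (r = 0.90). Tsc22d1 had 116.5, 210.1 and 329.5 CPM in SCL-treated livers, 315.6, 119.0 and 72.7 CPM in high-fat diet livers and 66.0, 30.7 and 47.9 CPM in normal diet livers. For Nr0b2 they were Rcc1l (r = 0.86), Cdk7 (r = 0.83) and Asb8 (r = 0.83). Among the members Cyp8b1 and Hsd3b7 were the pair most alike (r = 0.81), and Cyp8b1 and Baat the pair most opposed (r = -0.81). Hsd3b7 was lowest and Baat highest in the 2 libraries with the most mitochondrial reads, and the part of that share in these correlations was not tested.

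The genes around the core pathway were taken from 5 lists, chosen with earlier results of these data known. In high-fat against normal diet livers the median log2 fold change of the side-chain enzymes was 0.015 over 5 tested genes, 3 positive and 2 negative, beside 0.034 over all genes. Amacr, the racemase that readies side-chain intermediates for shortening, was the single gene at an unadjusted p under 0.05. Over all genes 4.32% reached that p, 1.55% in the lower direction. Amacr had 326.8, 435.1 and 353.8 CPM in high-fat diet livers, against 641.1, 526.7 and 774.0 CPM in normal diet livers, without overlap (log2 fold change -0.80, SE 0.36, edgeR adjusted p = 0.91). Lower without overlap in CPM were 5.27% of all genes. Other oxysterol and bile acid hydroxylases had a median of -0.13 over 5 genes and 0 at that p, against 4.32% of all genes. Their most abundant members were Cyp3a2 (-0.47, SE 1.26), whose high-fat diet libraries had 1343, 51.7 and 42.8 CPM against 881.3, 849.6 and 263.9 CPM on the normal diet, and Cyp2c22, the rat hydroxylase of muricholic acid synthesis (0.58, SE 0.58).

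Of 18 regulators tested, 10 were positive and 8 negative, with a median of 0.032. An unadjusted p under 0.05 was reached by Ppargc1a, a coactivator of nuclear receptors (-2.55, SE 0.97, edgeR adjusted p = 0.91), and by Dbp, a clock-driven activator known to bind the rat Cyp7a1 promoter (0.95, SE 0.38, edgeR adjusted p = 0.91). Ppargc1a had 0.627, 0.628 and 0.174 CPM in high-fat diet livers, against 4.39, 3.46 and 0.795 CPM in normal diet livers, which are low levels. Dbp had 5.59, 3.46 and 6.08 CPM in high-fat diet livers, against 2.68, 2.13 and 3.04 CPM in normal diet livers, and did not overlap. Named after their values were seen, Nr1h4, which encodes FXR, stood at 0.57 (SE 0.30) and Nr5a2 at -0.68 (SE 0.34), each with an edgeR adjusted p of 0.91. At an unadjusted p under 0.05, 1 regulator was higher and 1 lower of 18, against 2.77% and 1.55% of all genes. Without overlap in CPM 3 regulators were higher, Dbp among them, and 2 lower, Ppargc1a among them. Over all genes these shares were 5.33% and 5.27%, or 10.6% in both directions.

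Bile salt transporters had a median of -0.44 over 8 genes, 7 of them negative. The 12 hepatocyte markers had a median of -0.50 in high-fat against normal diet livers, 11 of them negative. An unadjusted p under 0.05 was reached by 0 of the transporters, against 4.32% of all genes. Abcb11, the bile salt export pump, had 537.5, 309.0 and 439.4 CPM in high-fat diet livers, against 657.1, 723.4 and 537.7 CPM in normal diet livers (-0.58, SE 0.30, edgeR adjusted p = 0.91). Slc10a1, which takes up bile salts from blood, stood at -0.42 (SE 0.34). The list of cholesterol supply, the pathway's substrate, also holds Abcg5 and Abcg8, which export cholesterol into bile. Its genes were negative in 10 of 10 cases with a median of -1.05, and 6 had an unadjusted p under 0.05 and were lower, against 1.55% of all genes, 1 of them being Abcg8 (-1.34, SE 0.45). None passed after adjustment in edgeR. Stard4, a carrier of cholesterol within the cell, had 13.9, 9.74 and 6.52 CPM in high-fat diet livers, against 32.7, 34.9 and 19.5 CPM in normal diet livers (-1.53, SE 0.38, edgeR adjusted p = 0.73). The 2 with larger values, Sqle (-3.65, SE 0.56) and Cyp51 (-3.29, SE 0.41), had edgeR adjusted p of 0.15 and 0.052.

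In SCL-treated against high-fat diet livers 0 genes of the 5 lists had an unadjusted p under 0.05, against 1.95% of all tested genes. The medians were 0.039 for side-chain enzymes, 0.097 for other hydroxylases, -0.032 for regulators, -0.083 for transporters and 0.24 for cholesterol supply, beside -0.031 over all genes. Among the most abundant, Slc27a2 stood at 0.19 (SE 0.38), Hnf4a at -0.61 (SE 0.40), Slc10a1 at 0.36 (SE 0.34) and Hmgcs1 at -0.50 (SE 0.37). Cyp51 had 29.9, 30.1 and 39.7 CPM in SCL-treated livers, against 28.2, 25.8 and 15.1 CPM in high-fat diet livers (0.53, SE 0.38), and did not overlap. Higher without overlap in CPM were 2.36% of all genes.

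Against the normal diet, SCL-treated livers had medians of -0.17, -0.0046, -0.21, -0.37 and -1.04 in the same 5 lists, beside 0.026 over all genes. Amacr (-0.84, SE 0.36), Abcb11 (-0.78, SE 0.30), Ppargc1a (-2.34, SE 0.97) and 5 genes of cholesterol supply were lower at an unadjusted p under 0.05, and Slco1a4, an organic anion carrier (0.95, SE 0.42), Ch25h, the cholesterol 25-hydroxylase (2.51, SE 0.85), and Nr2f1, an orphan nuclear receptor (1.71, SE 0.57), were higher. Over all genes 3.55% were lower and 3.32% higher at that p. None passed after adjustment (edgeR adjusted p = 0.66 for each of the 6 named). Ch25h was highest in SCL-treated replicate 2, with 10.6 CPM there, 1.16 and 1.23 CPM in SCL-treated replicates 1 and 3 and at most 0.940 CPM on the normal diet. Nr2f1 had 1.43, 6.11 and 3.69 CPM in SCL-treated replicates 1 to 3, against 0.914, 1.04 and 1.45 CPM on the normal diet, and overlapped. Ppargc1a overlapped too, with 1.02, 0 and 0.614 CPM in SCL-treated livers, against 4.39, 3.46 and 0.795 CPM on the normal diet.

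**Figure D5:**
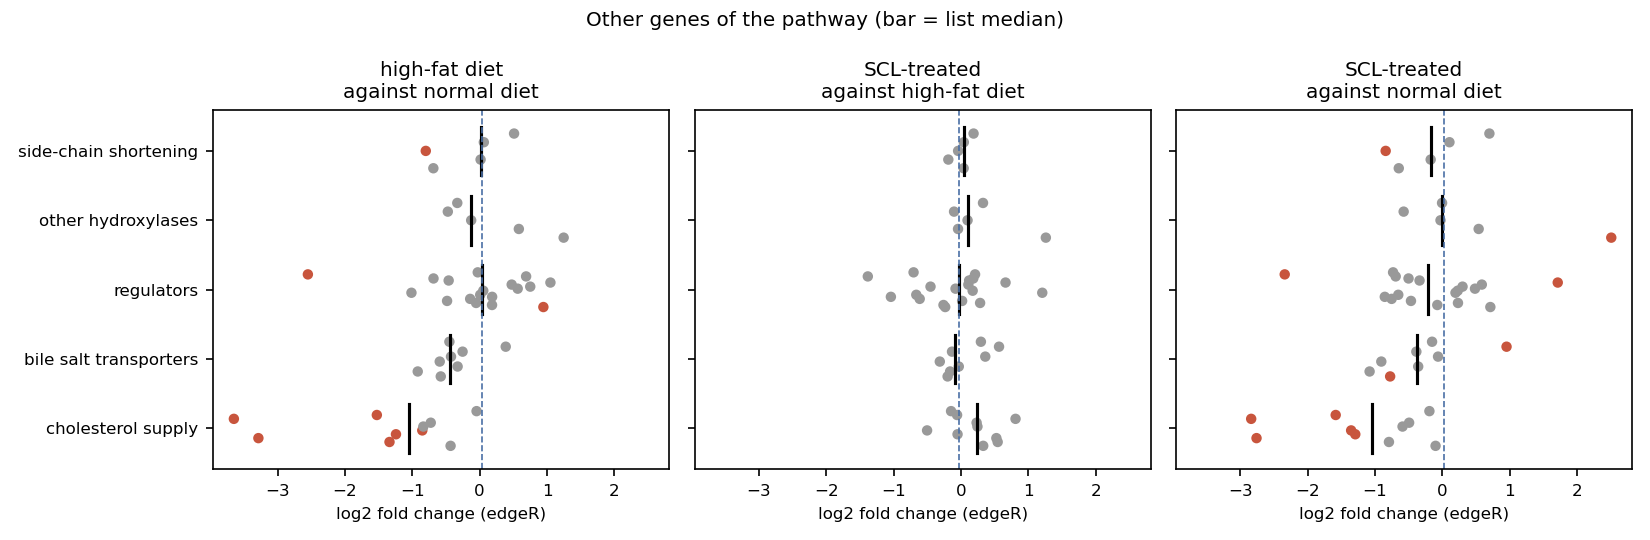
Log2 fold change (edgeR) of each tested gene in 5 lists around bile acid synthesis, in the 3 comparisons. Red points have an unadjusted p under 0.05, black bars are list medians and the dashed line is the median of all tested genes. Cholesterol supply genes lie below 0 in both comparisons with the normal diet, with medians of -1.05 and -1.04.

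Markers of other cells were set beside these values. In high-fat against normal diet livers pericentral hepatocyte markers, of the zone where Cyp7a1 is mostly made, had a median of 0.066 over 6 tested genes, and periportal markers one of -0.62 over 7. Of the pericentral markers 3 were negative and 1 had an unadjusted edgeR p under 0.05. Of the periportal markers 5 were negative and 3 had such a p, against 4.32% of all genes. Kupffer cell markers had a median of -0.64 in this comparison, with 6 of 6 negative and 1 at that p. In SCL-treated against high-fat diet livers the pericentral median was 0.29, with 2 of 6 negative. The periportal median was 0.18 there, with 1 of 7 negative. At an unadjusted edgeR p under 0.05 were 2 pericentral and 0 periportal markers there, against 1.95% of genes. The summed pericentral level ran from 3983 to 5611 CPM in SCL-treated livers, from 2749 to 3741 CPM in high-fat diet livers and from 3214 to 3588 CPM in normal diet livers. The summed periportal level ran from 4219 to 6887 CPM in SCL-treated livers, from 2670 to 8078 CPM in high-fat diet livers and from 6621 to 11686 CPM in normal diet livers. Cholangiocyte markers, of the cells that line bile ducts, summed to at most 67.2 CPM in SCL-treated, 39.6 CPM in high-fat diet and 29.4 CPM in normal diet livers. Small intestine markers summed to at most 3.98 CPM in any library. The part of these cell types in the bile acid gene values was not tested.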

How the data were processed

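RNA from male rat livers (9 libraries) was extracted with Trizol, and libraries were made with a NEBNext Ultra kit (labels' protocols). The authors deposited raw counts per gene in 2 tables, with normalized signal values (counts divided by 1 size factor per library, not used for tests), FPKM, and the log2 fold change and p-value of their own comparisons. The submitters' processing notes name DESeq2 and the mouse build mm9, and no source used here gives the aligner, counter or strand. High-fat diet counts were the same in both tables for all shared genes, and 0 columns belonged to other samples.

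Counts of the 15565 shared genes were fitted in R 4.3.3 with edgeR 4.0.16 (filterByExpr with a minimum count of 10, TMM, quasi-likelihood F test, 9 libraries, group as the only term), with Benjamini-Hochberg adjustment over 12041 genes and a threshold of 0.05. The SE was the log2 fold change divided by the root of F. Alternatives used DESeq2 1.42.0, limma 3.58.1 (voom with quality weights), other scalings and filters, a mitochondrial covariate, a replicate block and each library left out. DESeq2 with only the 6 libraries compared and the overlap of groups in FPKM were added after seeing the data. Ratios were log2 of (count + 1) over (count + 1). The fits were tested on simulated data. Members and lists were chosen with earlier results of these data known. Of each list, up to 3 genes with the largest log2 fold change at an unadjusted p under 0.05 were picked, or else the 2 most abundant. Not all of the picked genes are named in each comparison. Nr1h4, Nr5a2 and Abcg8 are given outside this rule. Totals of 12413774 to 15521648 reads set the precision, and with 3 libraries a group the spread between libraries limits it more than depth. Promoters came from RefSeq (GRCr8), used for sequence only.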

Additional observations from a re-analysis of the deposited data

How the results depend on the processing

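With high-fat against normal diet, edgeR called 1 gene, against 50 with DESeq2, 58 with DESeq2 on only the 6 libraries compared (added after seeing the data), 26 with limma-voom, 2 with no count filter, and 0 with library totals alone, only the 6 libraries, or without the 2 libraries over 40% mitochondrial. Leaving out each library in turn gave 1 to 4. Bile acid genes called were 0 in edgeR, 1 with DESeq2, 1 with limma-voom, 2 with DESeq2 on 6 libraries, and 0 to 0 with libraries left out. With SCL-treated against high-fat diet 0 genes were called, 1 with DESeq2, and 0 to 0 with libraries left out. With SCL-treated against normal diet 1 gene was called, against 40 with DESeq2, 132 with DESeq2 on 6 libraries, 152 with limma-voom, and 0 with library totals alone or without the 2 mitochondria-rich libraries, and 0 to 1 with libraries left out. Bile acid genes called there were 0, against 1 with DESeq2 and 1 with DESeq2 on 6 libraries. The cause was not tested.

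Of the values of single bile acid genes under the alternatives, 568 kept their direction and their side of the threshold, 6 passed it and 26 turned their sign. In high-fat against normal diet these were Cyp27a1 (0.013 with limma-voom) and Hsd3b7 (0.29 with the mitochondrial covariate). In SCL-treated against high-fat diet, Cyp7a1 stood at -0.60 without the 2 mitochondria-rich libraries, -0.15 with limma-voom and from -0.33 (without SCL-treated replicate 2) to 1.03 with libraries left out. Cyp7b1 stood at -0.018 with library totals, -0.016 with the replicate block, -0.43 with limma-voom and from -0.42 (without SCL-treated replicate 3) to 0.55 with libraries left out. Akr1d1 stood between -0.037 (without high-fat diet replicate 3) and 0.51 with libraries left out. Nr0b2 stood at 0.093 without the mitochondria-rich libraries and 0.27 with limma-voom. Baat, near 0, stood at 0.0015 with DESeq2 and with its size factors, 0.018 with mitochondrial transcripts removed, 0.0087 with the replicate block, 0.024 with the covariate, 0.017 without the mitochondria-rich libraries, and 0.17, 0.11 and 0.35 without SCL-treated replicates 1 and 3 and high-fat diet replicate 3. In SCL-treated against normal diet, Hsd3b7 stood at -0.051 with library totals and from -0.084 (without SCL-treated replicate 1; -0.075 without replicate 3) to 0.51 with libraries left out, and Akr1c14 at -0.071 with library totals and from -0.070 (without SCL-treated replicate 3) to 0.31 with libraries left out. The cause was not tested.

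Library totals alone moved the median of all genes to -0.19 in SCL-treated against high-fat diet and to -0.21 in SCL-treated against normal diet. With the replicate block edgeR called 1, 0 and 1 genes in the 3 comparisons and 0 bile acid genes. Deviations of libraries with the same number correlated over 0.1 in 4 of 9 pairs, against 7 of 18 pairs with other numbers. Of the 9 libraries, 3 correlated best with a library of their own number. Only the replicate number was looked at, so a shared batch of another kind could not be seen and was not tested. With the deposited FPKM in place of CPM, the bile acid genes whose groups did not overlap numbered 4 in place of 5 in high-fat against normal diet, 2 in place of 3 in SCL-treated against high-fat diet and 2 in place of 4 in SCL-treated against normal diet.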
